A study of Mus musculus with 12 samples.

Results

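The nuclear factor I (NFI) genes Nfia, Nfib, Nfic and Nfix, together with the zinc finger gene Zbtb20, were followed through nuclei of the mouse forebrain at postnatal day 1 (P1). The 5 genes were chosen by their symbols among the 55335 genes listed in the count files, 4 of them NFI genes, and all 5 were found with 1 identifier each. Single-nucleus RNA sequencing (snRNAseq) had been done on 12 animals, 8 wild type (WT) and 4 heterozygous (Het) for the S710fsX frameshift allele of Myt1l, which encodes a neuronal transcription factor, with 1 library per animal. The WT animals were 5 males and 3 females (WT 1 to WT 5 and WT 6 to WT 8) and the Het animals 3 males and 1 female (Het 1 to Het 3 and Het 4), all bred by crossing Het mice to C57BL/6J and drawn from 4 litters in all. The mutant animals are of a single germline line, so the allele was present in every cell, and no other allele or treatment is named for either group. The labels name forebrain, whereas the study's methods name prefrontal cortex in 1 place, and how much of the brain was taken is therefore unclear.

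NFI proteins are transcription factors that bind DNA as dimers at sites made of the motif TTGGC and its inverted copy GCCAA. In the developing brain they are known for the switch of radial glia from making neurons to making astrocytes and, in the cortex, for the formation of the corpus callosum. Zbtb20 is a transcriptional repressor known from the hippocampus, from upper-layer cortical neurons and from astrocyte development. Myt1l is best known for its use in turning fibroblasts into neurons, and it binds DNA at the core AAGTT.

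The members are long genes, and positions are from GENCODE M21 on GRCm38. Nfia (ENSMUSG00000028565.18) spans chr4:97772734-98118874 on the plus strand, and Nfib (ENSMUSG00000008575.17) lies on the same chromosome at chr4:82290173-82705750 on the minus strand. Nfic (ENSMUSG00000055053.18) spans chr10:81396186-81455635, Nfix (ENSMUSG00000001911.16) chr8:84699876-84800344, both on the minus strand, and Zbtb20 (ENSMUSG00000022708.16) chr16:42875881-43642602 on the plus strand. Reads from nuclei come largely from introns, and other annotated genes lie inside or across each member. There are 9 such genes at Zbtb20, 5 of them on its strand, 5 at Nfib with 1 on its strand, 2 at Nfic with 1 on its strand, 2 at Nfix and 1 at Nfia, the last 3 of them on the opposite strand. The sources used here do not give the rule by which UMIs were divided between overlapping genes, and the values of Zbtb20 in particular are uncertain by that share.

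Promoter windows of 250 bases before to 50 bases after a RefSeq start (GRCm38.p6) were matched by symbol for 4 of the 5 members, Nfia, Nfic, Nfix and Zbtb20, and Nfib had no entry. They are shown for Nfia and Zbtb20, on which the comparisons below turn, and for the Nfix start with the most NFI motifs. These motifs are what the proteins of the NFI members bind, and Myt1l is the gene altered here. Capitals mark NFI motifs (TTGGC or its reverse complement GCCAA) and Myt1l cores (AAGTT or AACTT), which do not overlap one another.
Nfia, chr4:97581693-97581992, plus strand: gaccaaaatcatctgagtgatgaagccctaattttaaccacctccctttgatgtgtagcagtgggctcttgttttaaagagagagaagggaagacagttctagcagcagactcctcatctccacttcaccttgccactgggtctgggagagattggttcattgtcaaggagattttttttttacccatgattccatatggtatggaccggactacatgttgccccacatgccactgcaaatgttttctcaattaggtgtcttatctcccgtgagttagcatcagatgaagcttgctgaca
Zbtb20, chr16:43247034-43247333, plus strand: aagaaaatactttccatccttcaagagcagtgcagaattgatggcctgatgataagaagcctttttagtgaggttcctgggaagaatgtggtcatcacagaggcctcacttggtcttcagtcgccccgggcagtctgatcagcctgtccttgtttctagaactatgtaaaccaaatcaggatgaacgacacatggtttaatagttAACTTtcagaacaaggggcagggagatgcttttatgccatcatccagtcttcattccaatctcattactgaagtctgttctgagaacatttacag
Nfix, chr8:84772826-84773125, minus strand: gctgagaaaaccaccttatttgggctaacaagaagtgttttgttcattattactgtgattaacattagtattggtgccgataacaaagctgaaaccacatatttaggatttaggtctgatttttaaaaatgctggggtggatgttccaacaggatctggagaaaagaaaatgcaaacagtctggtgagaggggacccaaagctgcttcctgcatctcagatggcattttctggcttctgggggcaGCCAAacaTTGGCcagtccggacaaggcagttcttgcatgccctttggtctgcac
The Nfia window held 0 NFI motifs and 0 cores, the Zbtb20 window 0 NFI motifs and 1 core, and the Nfix window 2 NFI motifs and 0 cores. The other Nfix windows held 0, 1 and 1 NFI motifs and, in the same order, 1, 0 and 0 cores. The Nfic window held 0 NFI motifs and 2 cores. Of 32851 promoter windows of this length, 46.7% held an NFI motif and 39.3% a core, so these matches are common. A full palindrome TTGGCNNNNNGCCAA stood in 0.0365% of windows and in 0 of the members' windows. The Nfia window lies before the start of the GENCODE gene and the Zbtb20 window inside the GENCODE gene, so both belong to RefSeq starts that differ from those coordinates. No binding data were analysed here, and a match is a description of letters only.

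The filter left 94261 nuclei, 54992 WT and 39269 Het, with 4461 to 10870 nuclei and a median of 1707.5 to 2055 UMIs (unique molecular identifiers) per nucleus in a library. Libraries held 15439429 to 40784144 UMIs in all, and 0 barcodes were shared between them. Nuclei were put in classes by how many genes of fixed marker lists they held, none of them a member, and each class name stands for nuclei of that gate, that is, astroglia-like, deep-layer-like and so on. In all 44064 nuclei (46.7%) received a class, of which 22617 passed by the smallest lead allowed, 2 markers over the next class, and 20899 more nuclei had at least 2 markers but a lead of 1 only. Class levels are given as CPM, the UMIs of a gene per 1000000 UMIs of all nuclei of a class in a library.

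The excitatory, inhibitory, astroglial, oligodendrocyte lineage, microglial, endothelial and mural and fibroblast gates were checked against markers left out of the gates. The layer, interneuron, striatal projection and Cajal-Retzius gates had no such check genes and were not checked. Of the check genes reported here 19 were highest in the class they mark, among them Slc1a2, a glutamate transporter of astrocytes, at 1011 CPM in astroglia against 101 CPM in the next class. The exceptions were the pericyte genes Kcnj8 (24.3 against 43.5 CPM) and Higd1b (4.88 against 8.47 CPM), which were higher in the endothelial gate than in the mural and fibroblast gate. The latter gate is therefore described by its fibroblast marker Col6a3 (71.8 against 8.97 CPM) rather than by pericyte genes. Myt1l itself, a neuron gene, stood at 592 ± 232 CPM (SD, n = 8) in WT microglia and at 253 ± 95.1 CPM (SD, n = 8) in WT astroglia, against 1670 ± 125 CPM (SD, n = 8) in excitatory nuclei. The part of neuronal RNA in the members' values of the non-neuronal classes was not tested.

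Counted per kilobase of gene span over all kept WT nuclei, Nfib stood at 2.41 CPM per kb and Nfia at 2.05, Nfix at 1.72, Zbtb20 at 1.17 and Nfic at 0.268. On this scale Nfic, the shortest member, was also the lowest. On the plain CPM scale Nfib was at 1003 ± 127, Zbtb20 at 900 ± 193, Nfia at 708 ± 88.5, Nfix at 173 ± 20.6 and Nfic at 16.0 ± 1.41 (mean ± SD, n = 8 WT libraries), and gene length enters those differences. In such sums more nuclei of a class and more RNA per nucleus cannot be told apart. All further comparisons are of 1 gene between classes or genotypes.

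Nfia, which drives the onset of gliogenesis, was highest in astroglia. There it stood at 2816, 2603, 3107, 2522, 2330, 2610, 3057 and 2837 CPM in WT 1 to WT 8, so the 8 libraries lay within a narrow range and every one of them was above every library of every other class. The mural and fibroblast gate followed at 1609 ± 160 CPM, deep-layer nuclei at 1264 ± 174 CPM, endothelial nuclei at 1130 ± 142 CPM, the oligodendrocyte lineage at 1090 ± 81.7 CPM and Cajal-Retzius nuclei at 1066 ± 219 CPM (SD, n = 8), and the library ranges of neighbours in this order overlapped. A step lay below them, and neighbours among microglia (393 ± 153 CPM), CGE nuclei (335 ± 69.3 CPM) and upper-layer nuclei (263 ± 52.2 CPM) again overlapped (SD, n = 8). CGE and MGE stand for interneurons with markers of the caudal and medial ganglionic eminences. MGE nuclei, at 97.2 ± 33.4 CPM, lay apart from upper-layer nuclei and overlapped with striatal projection nuclei at 49.0 ± 49.1 CPM (SD, n = 8), a class in which WT 4 held 1 nucleus. Without that library the striatal mean was 55.9 ± 48.6 CPM (SD, n = 7), and the whole span from the highest to the lowest class mean was 55.9-fold with all libraries.

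Zbtb20 was likewise highest in astroglia, with 3795, 3092, 3728, 2608, 2973, 3656, 3589 and 4026 CPM in WT 1 to WT 8. Each was above every library of the next class in order, and of all other classes only the 25 striatal nuclei of WT 3, at 2775 CPM, exceeded the lowest astroglial library. Below astroglia the order differed from that of Nfia. The mural and fibroblast gate (2025 ± 286 CPM) was followed by striatal projection nuclei (1679 ± 503 CPM) and the oligodendrocyte lineage (1175 ± 122 CPM), and then by Cajal-Retzius (923 ± 127 CPM), endothelial (923 ± 171 CPM), microglial (863 ± 140 CPM), CGE (645 ± 283 CPM) and MGE nuclei (641 ± 155 CPM), each overlapping with the next (SD, n = 8). Upper-layer nuclei (381 ± 67.5 CPM) and deep-layer nuclei (226 ± 92.9 CPM) were lowest (SD, n = 8). The striatal class, lowest of all for Nfia, thus ranked 3 for Zbtb20.

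Nfib, known for the corpus callosum and the hippocampus, had no such peak in glia. Deep-layer nuclei stood at 2179 ± 243 CPM, CGE nuclei at 2087 ± 507 CPM, Cajal-Retzius nuclei at 1710 ± 232 CPM and astroglia at 1665 ± 129 CPM (SD, n = 8), and neighbours among these overlapped. In astroglia the WT libraries held 1655, 1585, 1733, 1800, 1556, 1692, 1843 and 1459 CPM of Nfib. The mural and fibroblast gate (1096 ± 200 CPM), endothelial (904 ± 65.4 CPM), upper-layer (673 ± 116 CPM) and oligodendrocyte lineage nuclei (603 ± 65.3 CPM) formed a middle range, and MGE nuclei (351 ± 92.1 CPM), microglia (254 ± 116 CPM) and striatal nuclei (161 ± 107 CPM) a low one (SD, n = 8).

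Nfix, a regulator of progenitor differentiation in cortex and hippocampus, spanned 7.81-fold between its highest and lowest class means. Deep-layer nuclei (259 ± 35.7 CPM), CGE nuclei (223 ± 86.5 CPM), upper-layer nuclei (212 ± 43.1 CPM), astroglia (209 ± 36.9 CPM) and Cajal-Retzius nuclei (203 ± 52.2 CPM) overlapped throughout. The mural and fibroblast gate followed at 127 ± 45.9 CPM, the oligodendrocyte lineage, endothelial, striatal and microglial classes lay between 57.5 and 69.4 CPM, and MGE nuclei were lowest at 33.1 ± 21.1 CPM (SD, n = 8). Nfic, best known for tooth root formation, was low everywhere, from 62.6 ± 21.9 CPM in endothelial nuclei, the highest class mean, to 6.80 ± 13.9 CPM in CGE nuclei (SD, n = 8), where 6 of 8 WT libraries held 0 UMIs of it. Every neighbouring pair of classes overlapped for Nfic, and astroglia ranked 4 at 24.8 ± 6.71 CPM (SD, n = 8).

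**Figure D1:**
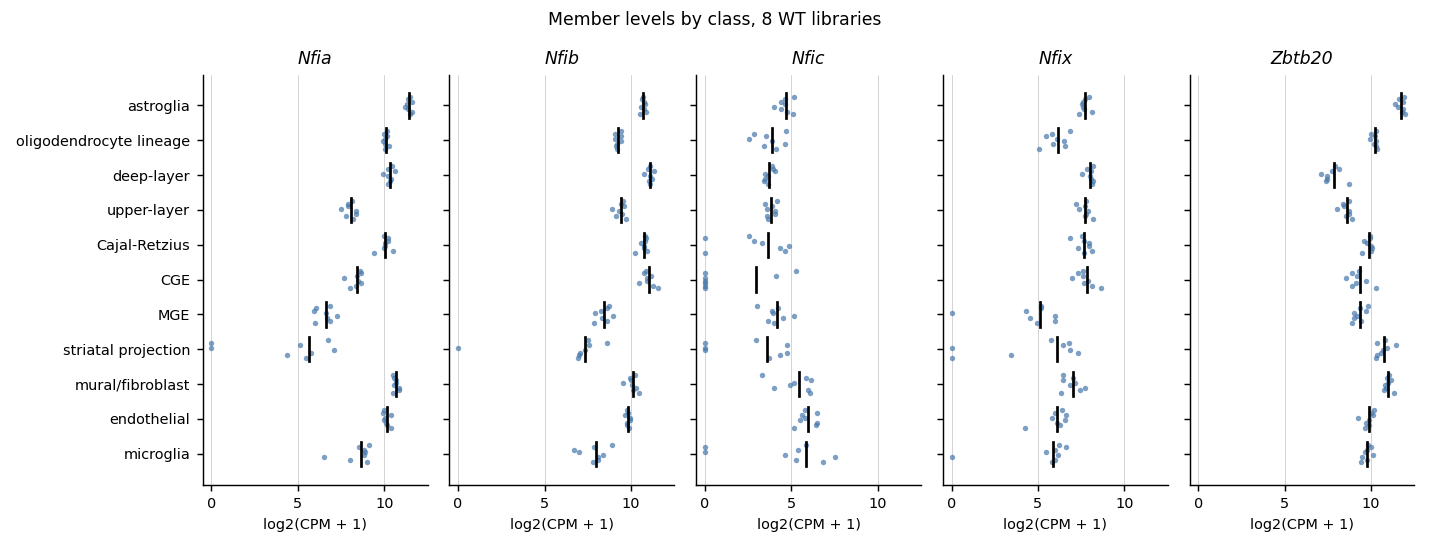
Level of each member in 11 classes, as log2(CPM + 1), with 1 point for each of the 8 WT libraries and a bar at the log2 of the mean CPM. Nfia and Zbtb20 are farthest right in astroglia (2735 and 3433 CPM), Nfib is about as high in deep-layer and CGE nuclei as in astroglia, and Nfic is low in every class.

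The share of nuclei with at least 1 UMI of a gene was set to a common depth of 800 UMIs per nucleus, since classes differed in depth (median 1405 UMIs in astroglia, 1116 in microglia and 2417 in excitatory nuclei). In WT astroglia the share was 84.6% ± 2.24 for Nfia, 87.8% ± 2.79 for Zbtb20, 69.1% ± 2.96 for Nfib, 15.2% ± 2.36 for Nfix and 2.09% ± 0.575 for Nfic (SD, n = 8). WT microglia gave 26.0% ± 10.2 for Nfia, 42.0% ± 7.62 for Zbtb20, 10.7% ± 4.55 for Nfib, 4.34% ± 2.96 for Nfix and 3.41% ± 2.74 for Nfic (SD, n = 8). They numbered 230 nuclei in all, with 8 in WT 6. The Nfic share in astroglia was below the mean share in microglia, so by detection alone Nfic was not higher in astroglia than in that class. The lowest shares of Nfia were in neurons, at 2.92% ± 2.63 in striatal nuclei and 5.75% ± 1.62 in MGE nuclei (SD, n = 8).

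To test the class differences, pairs of classes from the same WT libraries were compared with edgeR's quasi-likelihood test, with the library as a block, and a gene was called at an adjusted p under 0.05 over all genes tested and a log2 difference of 0.2 or more. Between astroglia and excitatory nuclei 3 members were higher in astroglia, 1 was lower and 1 was not called, where 68.8% of the 12375 genes tested were called in either direction. Zbtb20 was higher in astroglia by 2.99 ± 0.0810 on the log2 scale (SE, adjusted p = 6.27e-15), Nfia by 1.79 ± 0.104 (SE, adjusted p = 7.61e-11) and Nfic by 0.64 ± 0.136 (SE, adjusted p = 0.000509). Nfix was lower in astroglia, with a log2 difference of -0.44 ± 0.0893 (SE, adjusted p = 0.000345). Nfib differed by 0.16 ± 0.103 (SE, adjusted p = 0.179) and was not called, but over the 4 Het libraries its difference was 0.38 (adjusted p = 0.0212) and over all 12 libraries 0.24 (adjusted p = 0.0234). Most genes differ between these classes, so a call says little without its size. The size also rests on the scaling, which here centres the genes tested. Scaled by library totals only, the plain CPM scale, the median of all genes tested moved from -0.00 to 0.38 and the calls from 4198 higher and 4321 lower to 6652 higher and 2764 lower. On that scale Nfix differed by -0.05 (adjusted p = 0.604 with edgeR) and was no longer called, Nfib was called at 0.54 (adjusted p = 0.000146 with edgeR), and Zbtb20, Nfia and Nfic stayed called at 3.37, 2.18 and 1.02.

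Against inhibitory nuclei all 5 members were higher in astroglia, where 61.0% of 8652 genes were called (2685 higher and 2595 lower, or 3948 and 1908 by library totals only, with the median at 0.26). Nfia differed by 3.26 ± 0.117 on the log2 scale, the most of the 5, Zbtb20 by 1.64 ± 0.0970, Nfix by 0.87 ± 0.0861, Nfic by 0.61 ± 0.225 and Nfib by 0.51 ± 0.0903 (SE), with adjusted p from 3.06e-13 for Nfia to 0.0267 for Nfic. Against the oligodendrocyte lineage gate all 5 were again higher in astroglia, where 42.4% of 6741 genes were called (1497 higher and 1359 lower, or 2380 and 964 by library totals only, with the median at 0.24). In both comparisons the 5 members stayed called and higher in astroglia on that scale. Here the sizes were close to one another, at 1.37 ± 0.132 for Nfix, 1.34 ± 0.0729 for Zbtb20, 1.28 ± 0.0819 for Nfib, 1.13 ± 0.0696 for Nfia and 0.75 ± 0.296 for Nfic (log2, SE), with adjusted p of 0.0428 for Nfic. The Nfic calls were lost with DESeq2 (adjusted p = 0.0736 against inhibitory and 0.120 against oligodendrocyte lineage nuclei) and over the Het libraries (adjusted p = 0.133 and 0.117). They were also lost without WT 1 (0.37, adjusted p = 0.187), WT 2 or WT 8 against inhibitory nuclei, and without WT 2 (0.62, adjusted p = 0.131), WT 3, WT 4 or WT 8 against the oligodendrocyte lineage.

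**Figure D2:**
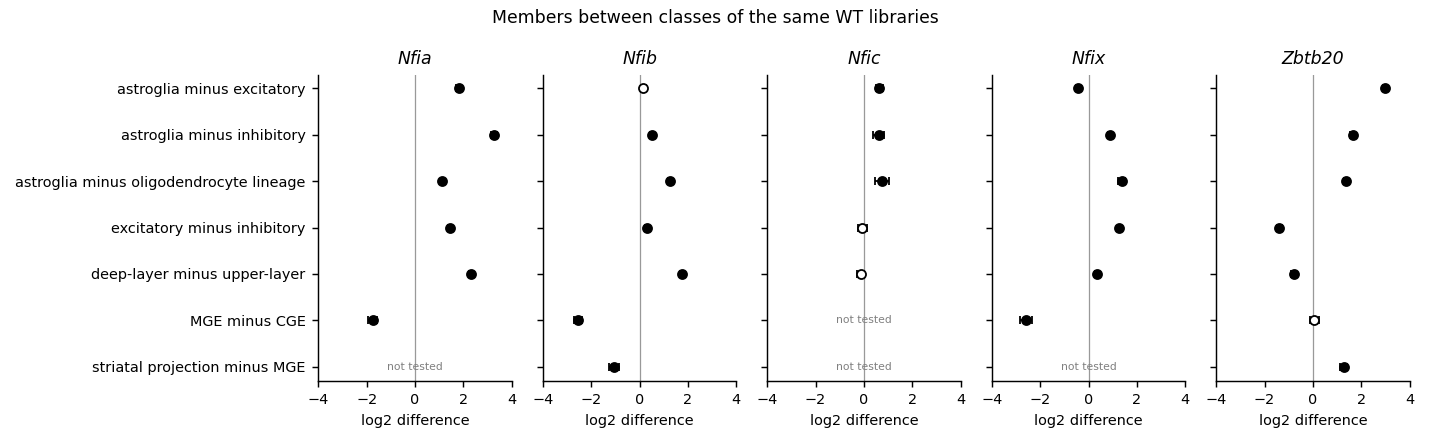
Log2 difference of each member between pairs of classes of the same 8 WT libraries, with the first-named class minus the second on the x axis, points for the edgeR estimate and bars for its SE. Filled points were called, open points were not, and in deep-layer against upper-layer nuclei Nfia and Nfib lie right of 0 (2.31 and 1.74) and Zbtb20 left of it (-0.79).

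Among neurons the members split. Excitatory nuclei exceeded inhibitory nuclei in Nfia (1.45 ± 0.0792), Nfix (1.28 ± 0.0752) and Nfib (0.31 ± 0.0905), and were lower in Zbtb20 (-1.398 ± 0.0990), while Nfic was not called (-0.07 ± 0.184; log2, SE). That is 4 of 5 called, where 33.8% of 11469 genes were (2038 higher and 1834 lower, or 1559 and 2716 by library totals only, with the median at -0.11). The Nfib call did not hold under the strict gate (0.16, adjusted p = 0.251), over the Het libraries (0.25, adjusted p = 0.222) or by library totals only (0.20, adjusted p = 0.0903).

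Cortical layers also differed in 4 of the 5 members. Nfia in deep-layer nuclei was at 1376, 1205, 1554, 959, 1190, 1340, 1307 and 1184 CPM in WT 1 to WT 8, against 275, 242, 242, 182, 326, 330, 217 and 292 CPM in upper-layer nuclei of the same libraries. The deep-layer value was the higher in all 8, and the ranges did not overlap. The edgeR difference was 2.31 ± 0.0721 on the log2 scale (SE, adjusted p = 7.06e-18), and 4 of 5 members were called, where 31.1% of 9825 genes were. Nfib was higher in deep-layer nuclei by 1.74 ± 0.0545 (SE, adjusted p = 7.49e-18) and Nfix by 0.34 ± 0.0622 (SE, adjusted p = 0.000104), whereas Nfic was not called (-0.14 ± 0.147, adjusted p = 0.522). The astroglial check genes averaged 161 CPM in sum in deep-layer and 33.8 CPM in upper-layer nuclei of WT libraries. The part of astroglial RNA in the layer differences was not tested.

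Zbtb20 ran the other way. In upper-layer nuclei it stood at 428, 325, 350, 264, 419, 420, 370 and 475 CPM in WT 1 to WT 8, and in deep-layer nuclei at 237, 279, 210, 138, 171, 175, 168 and 427 CPM. The upper-layer value was the higher in every WT library, by the least in WT 8 and WT 2. The log2 difference, deep-layer minus upper-layer, was -0.79 ± 0.0966 (SE, adjusted p = 3.34e-07). Over the 4 Het libraries it was -0.04 (adjusted p = 0.888), with 343, 417, 550 and 352 CPM in upper-layer and 237, 357, 865 and 290 CPM in deep-layer nuclei of Het 1 to Het 4. In 3 of the 4 Het libraries the upper-layer value was the higher, and in Het 3 the deep-layer value was. Whether this gap differs between genotypes was not tested.

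Interneuron classes differed in the NFI genes as well. CGE nuclei exceeded MGE nuclei in Nfix, Nfib and Nfia, with log2 differences of MGE minus CGE of -2.59 ± 0.259, -2.55 ± 0.169 and -1.76 ± 0.183 (SE), and adjusted p between 3.30e-10 and 1.74e-07. Zbtb20 was not called (0.05 ± 0.185, adjusted p = 0.886) and Nfic was too low to be tested, so 3 of 4 tested members were called, where 28.0% of 2058 genes were. Nfib by library was 1854, 1706, 2322, 1970, 1915, 1418, 2471 and 3037 CPM in CGE nuclei of WT 1 to WT 8, all above the highest MGE value of 499 CPM. Striatal projection nuclei differed from MGE nuclei in both members tested, where 28.0% of 2407 genes were called. Zbtb20 was higher in striatal nuclei by 1.27 ± 0.15 (SE, adjusted p = 3.28e-08) and Nfib lower, at -1.07 ± 0.197 (SE, adjusted p = 5.95e-05), while Nfia, Nfic and Nfix did not pass the filter on low counts.

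A list of 20 genes of gliogenesis and NFI action was followed beside the members. Of the 19 tested between astroglia and excitatory nuclei 15 were higher in astroglia and 0 lower. Their median log2 difference was 2.97 against -0.00 over all genes tested, of which 68.8% were called. Here and below, such shares of all genes count calls in either direction. Genes of the list such as Aldh1l1 are known from astroglia, and that class was gated on other astroglial markers. The direction against neurons was therefore largely set by these choices and is a description only. The smallest adjusted p were those of Aldh1l1, a folate enzyme of astrocytes (6.16 ± 0.101, adjusted p = 4.11e-17), Id3, an inhibitor of proneural factors (7.51 ± 0.152, adjusted p = 2.55e-16), and Notch1, the receptor that holds radial glia as progenitors (5.72 ± 0.135, adjusted p = 1.23e-15; log2, SE). Smad1 and Rbpj, which carry BMP and Notch signals, had the only negative values, -0.08 ± 0.0913 and -0.00 ± 0.0736, and were not called. Of the 18 tested against inhibitory nuclei 15 were higher in astroglia and 0 lower (median 2.27, with 61.0% of all genes called), and of the 17 tested against the oligodendrocyte lineage 10 were higher and 1 lower (median 0.79, with 42.4% of all genes called). Between excitatory and inhibitory nuclei 2 of 12 were higher and 6 lower (median -0.25, with 33.8% of all genes called), and between deep-layer and upper-layer nuclei 4 of 10 were higher and 0 lower (median 0.13), near the 31.1% of all genes called, led by Apcdd1, a Wnt inhibitor known as an NFIA target, at 2.82 ± 0.148 (log2, SE, adjusted p = 1.14e-13). For MGE against CGE nuclei 1 gene of the list was tested, Ezh2 (-0.73 ± 0.155, called), and for striatal against MGE nuclei 2 were tested and 1, Smad4, was called (1.01 ± 0.234, adjusted p = 0.00101).

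Likeness of pattern was measured as Pearson's r between mean log2 CPM over 11 classes in WT libraries, among 14070 genes of at least 10 CPM in at least 1 class, with gate genes and members left out. Intermediate progenitors, a class of the original plan, were too few to give a value. Nfia was most like Dhx29 (r = 0.886), Gm37186 (r = 0.873) and Gys1 (r = 0.872), Nfib most like Pip4k2b (r = 0.846), Dhx29 (r = 0.825) and Hdhd2 (r = 0.823), and Nfix most like 2310061I04Rik (r = 0.865), Sdk1 (r = 0.842) and Zfp653 (r = 0.815). Nfic was most like Arf1 (r = 0.979), Arpc1b (r = 0.977) and Slc4a1ap (r = 0.976), and Zbtb20 most like Srsf6 (r = 0.944), Cdip1 (r = 0.930) and Phf21a (r = 0.925). Among the members themselves Nfib was closest to Nfix (r = 0.803) and to Nfia (r = 0.731), and Zbtb20 had r of 0.209 with Nfia and -0.154 with Nfib. The 11 points share libraries and differ in depth, so these values are descriptions.

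The second question was whether loss of 1 functional Myt1l allele altered the members. Whether a transcript of the frameshift allele remains and is counted is not known from the files, which do not separate the alleles. Myt1l was not lower in the libraries labelled Het, so its level does not check the labels, and WT and Het name the libraries as labelled. The results text of the study gives the sizes of these groups the other way round from its methods and the labels. The labels were followed here, and the sign of every Het minus WT difference rests on them. Its mean over all kept nuclei was 1574 ± 55.5 CPM in the 4 Het and 1422 ± 111 CPM in the 8 WT libraries (SD), which was not called (log2 difference 0.12 ± 0.0626, SE, adjusted p = 0.555 with edgeR). In excitatory nuclei Myt1l ran from 1875 to 2012 CPM in Het and from 1444 to 1869 CPM in WT libraries, so every library labelled Het lay above every one labelled WT. The log2 difference there was 0.20 ± 0.0648 (SE, adjusted p = 0.289 with edgeR), with an exact permutation p of 0.00404 that was not adjusted over classes. Groups without overlap occurred for Myt1l in 1 of the 14 classes, and the share of all genes without overlap was not computed.

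Of the 70 pairs of member and class, 60 passed the filter on low counts and 0 were called between Het and WT with edgeR. The background was as sparse. In excitatory nuclei 0.0205% of 14644 genes were called, in deep-layer nuclei 0.0522% of 9577 and in the oligodendrocyte lineage 0.0674% of 4448, and in the other 11 classes, that is all kept, upper-layer, Cajal-Retzius, inhibitory, MGE, CGE, striatal, astroglial, microglial, endothelial and mural and fibroblast nuclei, 0% were. These counts moved with single libraries. Without Het 4 they were 301 in excitatory, 133 in upper-layer, 54 in deep-layer and 42 in all kept nuclei. Without Het 3 they were 0 in each of these classes, and without WT 2 or WT 8 they were 15 or 8 in deep-layer nuclei. Over the males alone they were 136 in excitatory, 105 in upper-layer and 47 in deep-layer nuclei. At an unadjusted p under 0.05 there were 6 pairs of the 60, 2 in excitatory nuclei, 3 in deep-layer nuclei, which are part of the excitatory class, and 1 in MGE nuclei. At the same level were 1687 of all genes tested in excitatory, 819 in deep-layer and 279 of 4154 in MGE nuclei. The exact permutation test over libraries, whose smallest possible p is 0.00202, gave 0 of 70 pairs at an adjusted p under 0.05 (smallest 0.672), 3 at an unadjusted p under 0.05 and 0 pairs whose groups did not overlap. Neither this test nor the check for overlap was run over all genes, so these counts have no background share. The 10 pairs not tested by edgeR were Nfic in 7 classes, Nfix in microglia and striatal nuclei, and Nfia in striatal nuclei.

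In astroglia, where Nfia and Zbtb20 were highest, no member stood apart between genotypes. Nfia was at 2649, 2693, 3013 and 2430 CPM in Het 1 to Het 4, within the WT range of 2330 to 3107, and the log2 difference of Het minus WT was -0.04 ± 0.0928 (SE, adjusted p = 0.9995 with edgeR). Zbtb20 was at 3080, 3551, 4252 and 3573 CPM in the Het libraries (log2 difference 0.05 ± 0.114, SE), with Het 3 above every WT library. Nfib (0.05 ± 0.10), Nfic (0.07 ± 0.205) and Nfix (0.08 ± 0.138) also differed by less than their SE (log2, SE). Tested on simulated counts with the astroglial means, 59.8% of genes changed by 1 on the log2 scale were recovered and 9.28% of those changed by 0.5. Of all calls, 10.7% were on genes that had not been changed. Over genes of all levels, differences of 0.5 were thus mostly missed in that simulation. All genes were simulated with a single spread that was fixed beforehand and not estimated from these libraries. Recovery at the spread of these data, also for genes as high as Nfia, Zbtb20 and Nfib, was not measured.

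In the excitatory class Nfia and Zbtb20 moved apart without reaching a call. Nfia was at 640, 493, 710, 365, 732, 766, 649 and 617 CPM in WT 1 to WT 8 and at 345, 362, 452 and 691 CPM in Het 1 to Het 4. Het 1 and Het 2 lay below every WT library, Het 3 lay above WT 4 only, and the female Het 4 lay above 5 of the 8 WT libraries, so the groups overlapped. The log2 difference was -0.44 ± 0.192 (SE, adjusted p = 0.397 with edgeR), and the exact permutation p of the means was 0.111. Zbtb20 was at 398, 329, 335, 229, 305, 326, 284 and 507 CPM in WT and 353, 434, 825 and 374 CPM in Het libraries, with a log2 difference of 0.55 ± 0.202 (SE, adjusted p = 0.329 with edgeR; exact permutation p = 0.0687). All 4 Het libraries were above the WT mean, but only Het 3 was above WT 8. Some sums of check genes of other classes also differed in the same nuclei at an unadjusted p under 0.05. The astroglial ones did not, at means of 83.9 CPM in WT and 74.6 CPM in Het libraries (exact permutation p = 0.475). Neither did the oligodendrocyte lineage and endothelial ones (exact permutation p = 0.394 and 0.572). The sum of the inhibitory check genes was 3.11 to 6.67 CPM in WT and 4.198 to 11.03 CPM in Het libraries (exact permutation p = 0.0222), that of the microglial ones 2.37 to 4.99 and 3.52 to 8.22 CPM (exact permutation p = 0.0303), and that of the mural and fibroblast ones 1.15 to 2.36 and 0.763 to 1.44 CPM, lower in Het (exact permutation p = 0.0465). The excitatory check genes themselves were at 498 to 630 CPM in WT and 583 to 745 CPM in Het libraries (exact permutation p = 0.0182). None of the 28 sums compared in excitatory, deep-layer, upper-layer and MGE nuclei reached an adjusted p under 0.05 (smallest 0.204, exact permutation test). Zbtb20 stood at 956 ± 237 CPM in inhibitory and 339 ± 83.2 CPM in excitatory nuclei of WT libraries (SD, n = 8), and the part of RNA from other classes was not tested.

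The mix of layers moved with Nfia. Deep-layer nuclei made up 39.3, 26.3, 41.2, 26.5, 62.5, 55.6, 50.8 and 42.8% of nuclei with a layer in WT 1 to WT 8 and 17.5, 22.6, 29.6 and 49.8% in Het 1 to Het 4 (exact permutation test of the means, two-sided p = 0.133). The 5 libraries with the lowest shares, Het 1, Het 2, WT 2, WT 4 and Het 3, were also the 5 with the lowest Nfia and the lowest Nfib in excitatory nuclei. Within 1 layer the Nfia difference was -0.21 ± 0.10 in deep-layer nuclei (SE, adjusted p = 0.561 with edgeR) and -0.32 ± 0.180 in upper-layer nuclei (SE, adjusted p = 0.642 with edgeR). In upper-layer nuclei the Het libraries held 154, 158, 196 and 339 CPM of Nfia, the first 2 below every WT library and Het 4 above every WT library. Without Het 4 the upper-layer difference was -0.63 and was called (adjusted p = 0.0337 with edgeR), in a fit that called 1.13% of 11765 genes (133, 105 of them lower in Het) where none of 11434 was called with all libraries. Over the males alone, 5 WT against 3 Het, Nfia in upper-layer nuclei was not called, nor was it with sex as covariate. Het 4 is the only female Het library, so sex cannot be told apart from that library. The part of dissection and of the layer mix was not tested.

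**Figure D3:**
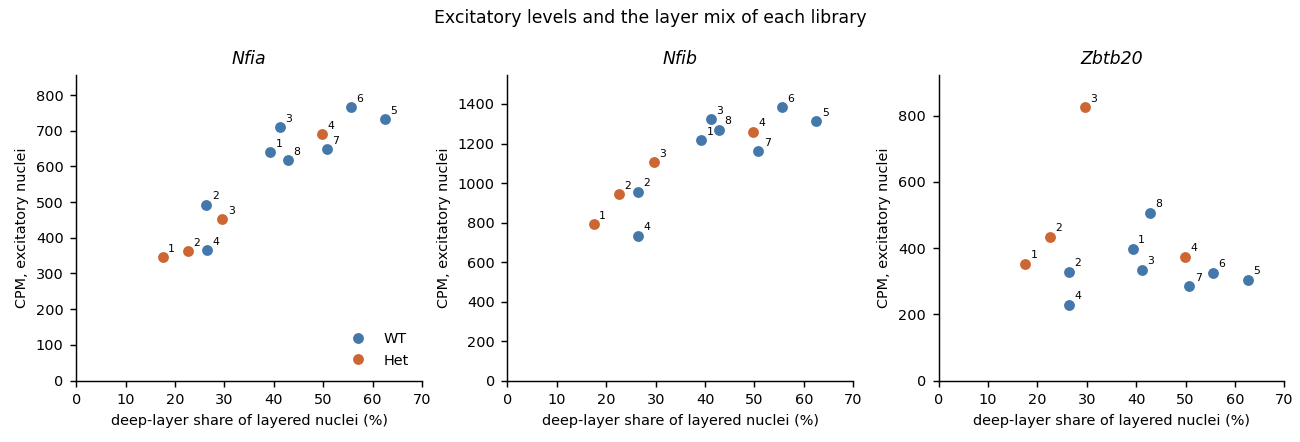
Level of Nfia, Nfib and Zbtb20 in excitatory nuclei (CPM, y axis) against the percentage of layered nuclei that were deep-layer (x axis), with 1 point per library, numbered within its genotype. For Nfia and Nfib the libraries with shares under 30% are the lowest, WT and Het alike, whereas for Zbtb20 Het 3 stands at 825 CPM and the other libraries show no such order.

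The largest difference of any tested pair was that of Zbtb20 in deep-layer nuclei, 0.97 ± 0.270 on the log2 scale (SE, adjusted p = 0.199 with edgeR). The Het libraries held 237, 357, 865 and 290 CPM, and the WT libraries from 138 to 427 CPM with a median of 192. Het 3 was above every WT library, Het 2 and Het 4 were above 7 of 8, and Het 1 lay below WT 1, WT 2 and WT 8, so the groups overlapped. Het libraries averaged 437 ± 289 CPM (SD, n = 4) and WT libraries 226 ± 92.9 CPM (SD, n = 8). The exact permutation test gave p = 0.0465 (0.672 after adjustment over the 70 pairs). Over the males, 5 WT against 3 Het, the difference was 1.24 and was called (adjusted p = 0.0381 with edgeR), in a fit that called 0.514% of 9146 genes (47, 39 of them higher in Het) against 5 with all libraries. Without the filter on low counts it was 0.97 and was called (adjusted p = 3.96e-24 with edgeR), in a fit that called 0.440% of 31114 genes. The libraries, their overlap and the size were the same as with the filter, so that p does not measure the spread between libraries. Without Het 3 the difference was 0.41 (adjusted p = 0.809 with edgeR). The astroglial check genes Aqp4, Mlc1, Slc1a2 and Gli2 were at 142 to 177 CPM in sum in deep-layer nuclei of WT and at 113 to 206 CPM in those of Het libraries, with 0 of the 4 genes at 0. The inhibitory check genes were at 2.30 to 9.63 CPM in WT and 1.97 to 14.1 CPM in Het libraries (exact permutation p = 0.135), and the part of RNA from other classes was not tested.

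**Figure D4:**
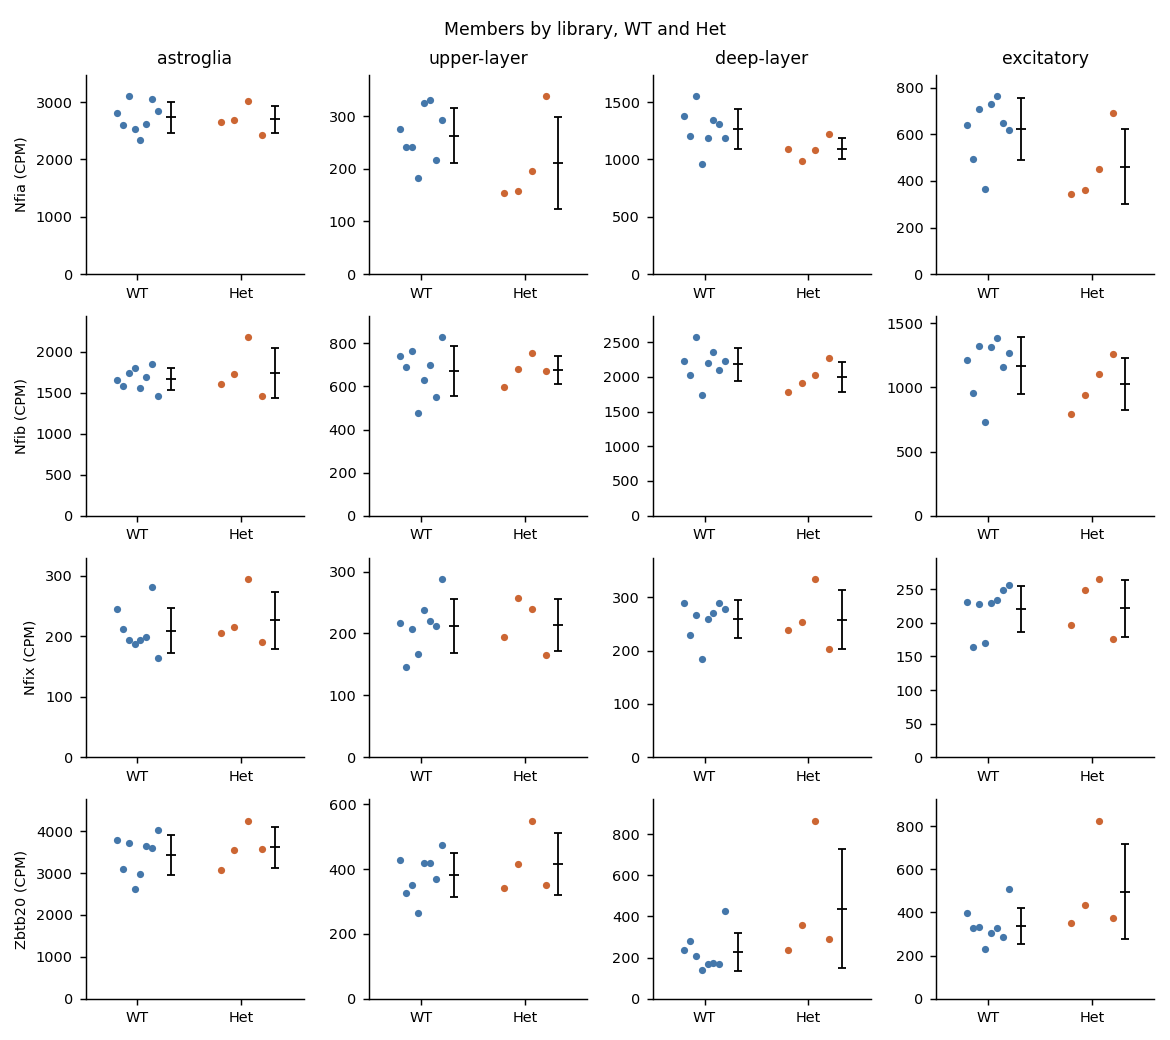
Level of Nfia, Nfib, Nfix and Zbtb20 (CPM, y axes from 0) in astroglia, upper-layer, deep-layer and all excitatory nuclei, with 1 point per library in order of its number, 8 WT and 4 Het, and the mean ± SD at the right of each group. Groups overlap in every panel, Het 3 is high for Zbtb20 in deep-layer nuclei (865 CPM), and Het 4 is high for Nfia in upper-layer and excitatory nuclei (339 and 691 CPM).

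The rest of the 6 pairs were Nfic in deep-layer nuclei (0.40 ± 0.181, adjusted p = 0.554) and Zbtb20 in MGE nuclei (0.36 ± 0.155, adjusted p = 0.684, both as log2 ± SE with edgeR). Nfic in deep-layer nuclei was at 16.8, 13.6, 16.0 and 16.4 CPM in Het 1 to Het 4 and between 9.83 and 16.0 CPM in WT libraries. Zbtb20 in MGE nuclei was at 1114 CPM in Het 2 and at 737 to 750 CPM in the other Het libraries. The WT libraries ran from 467 to 898 CPM with a mean of 641 CPM. MGE nuclei were also higher in Het libraries in the fitted values of Nfia (0.45 ± 0.224), Nfib (0.34 ± 0.184) and Nfix (0.70 ± 0.366; log2, SE), none among the 6 pairs, over 59 to 172 nuclei per library. In the same nuclei the sum of the astroglial check genes was 21.9 to 70.4 CPM in WT and 28.3 to 83.8 CPM in Het libraries (exact permutation p = 0.160), and that of the mural and fibroblast ones 0 to 2.47 and 0 to 8.87 CPM (exact permutation p = 0.0364, adjusted p = 0.204 over the 28 sums). There 1 of the 3 mural and fibroblast genes was at 0 throughout. The part of RNA from both classes in the MGE values was not tested. In the remaining classes the fitted differences ran from -0.28 for Nfib in the mural and fibroblast gate to 0.77 for Nfib in microglia, where Het 2 stood apart.

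**Figure D5:**
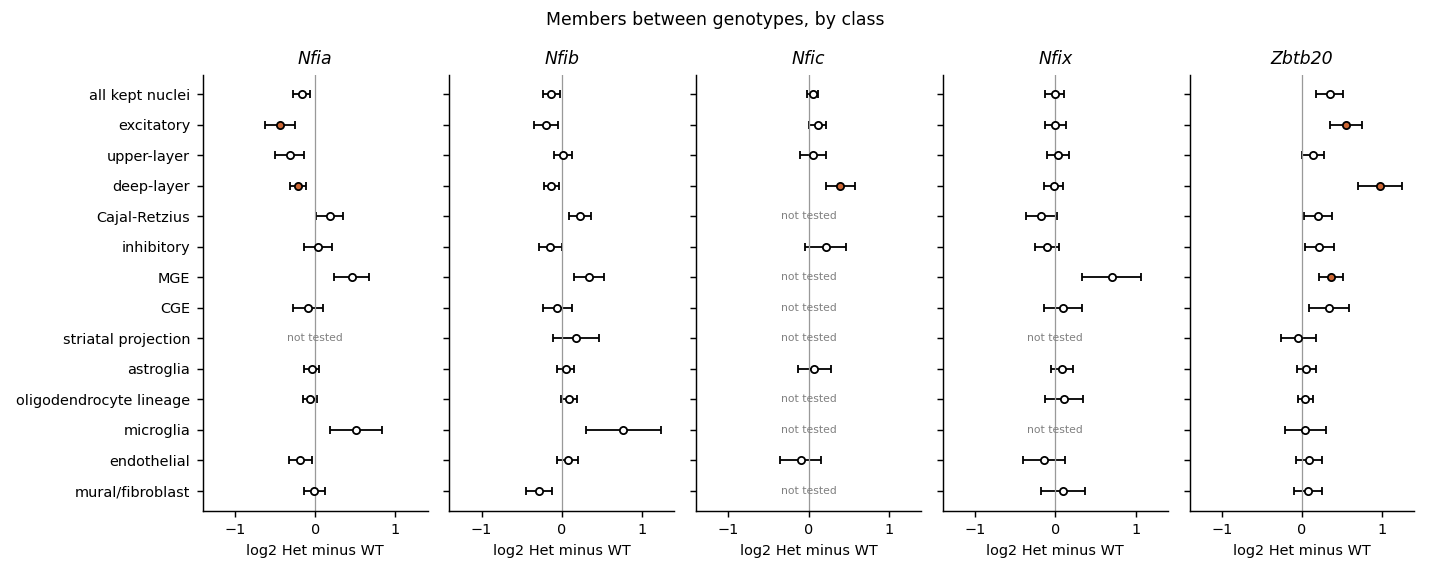
Log2 difference of Het minus WT for each member (panels) in each class (rows), with the edgeR estimate as a point and its SE as a bar, from 8 WT and 4 Het libraries. Filled points had an unadjusted p under 0.05 (6 pairs), 0 points were called after adjustment, and the astroglial values lie near 0 for all 5 members.

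To ask whether the genotype difference was unequal in glia and neurons, the log2 ratio of astroglial to excitatory CPM was taken in each library (with 1 CPM added) and compared by an exact permutation test, two-sided. The Zbtb20 ratio averaged 2.94 ± 0.396 over the 4 Het and 3.36 ± 0.211 over the 8 WT libraries (SD), a difference of -0.42 (exact p = 0.0263, adjusted p = 0.131 over the 5 members). The Nfia ratio was 2.16 ± 0.349 in WT and 2.59 ± 0.528 in Het libraries (exact p = 0.117, adjusted p = 0.293), and those of Nfib (difference 0.24, exact p = 0.319), Nfix (0.10, exact p = 0.558) and Nfic (-0.01, exact p = 0.976) also missed the threshold. Without Het 4 both Nfia (0.69) and Zbtb20 (-0.52) passed it (exact permutation test, adjusted p = 0.0455 each), and without WT 8 Zbtb20 did (-0.47, exact permutation test, adjusted p = 0.0455). Without Het 3 the Zbtb20 difference was -0.22 (exact permutation test, adjusted p = 0.50). The excitatory class pools layers, and deep-layer nuclei made up 17.5 to 29.6% of layered nuclei in Het 1 to Het 3 and 49.8% in Het 4. The WT mean was 43.1%. Nfia stood at 1264 CPM in deep-layer and 263 CPM in upper-layer nuclei of WT libraries, and the part of the layer mix in these ratios was not tested.

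The gliogenesis list was followed between genotypes as well, and 0 of its genes were called in any class. Over all kept nuclei its 20 genes had a median log2 difference of 0.04 against -0.00 over all genes, and in astroglia its 19 tested genes had a median of -0.05. Below 0.05 before adjustment were 1 gene over all kept nuclei and 1 in astroglia (against 1989 of 20095 and 609 of 10712 genes), both Gfap, an astrocyte filament gene (0.68 ± 0.267 and 0.45 ± 0.211, log2 ± SE, adjusted p = 0.438 and 0.874 with edgeR). In deep-layer nuclei it was 1 of 11, Jak1 (-0.29 ± 0.120), and in upper-layer nuclei 2 of 11, Bbx (0.39 ± 0.151) and Jak1 (-0.20 ± 0.0903; log2, SE), against 819 of 9577 and 1007 of 11434 of all genes. In excitatory nuclei it was 3 of 15, against 1687 of 14644, Jak1 (-0.23 ± 0.0641), Hes1 (0.81 ± 0.287) and Sox9 (0.89 ± 0.386; log2, SE), with adjusted p of 0.260, 0.319 and 0.395 with edgeR. Hes1 and Sox9 are genes of radial glia and astrocytes. In excitatory nuclei the astroglial check genes stood at 57.8 to 106 CPM in WT and 52.6 to 108 CPM in Het libraries (exact permutation p = 0.475). That sum averaged 161 CPM in deep-layer and 33.8 CPM in upper-layer nuclei of WT libraries, so the layer mix enters it. The part of astroglial RNA and of the layer mix in the Hes1 and Sox9 differences was not tested.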

How the data were processed

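Nuclei of 12 P1 forebrains were split-pool barcoded, each library in its own reverse transcription wells. Per the study's methods and the labels, the authors mapped reads to mm10 with ScaleRna and deposited expected counts, that is, UMI counts per gene and nucleus with some UMIs divided between genes (6.74 to 7.05% of entries), and the labels also name Seurat 4.3.0. Per the study's methods the authors called nuclei with CellFinder to account for ambient RNA, and no further correction for free RNA was made here. Of 126684 barcodes, 98111 passed the study's filter (UMIs from 800 to 6000, genes from 300 to 3000, a mitochondrial share up to 1%, log genes over log UMIs of 0.9 or more) and 3850 of these, scored highest against simulated doublets (5% per library), were removed.

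A nucleus was gated to a class with at least 2 markers and a lead of 2. Of the genes used to check the gates, 1 is not reported here. The design had assumed whole counts, so sums per library and class were rounded before edgeR 4.0.16 (R 4.3.3) with TMM, filterByExpr and Benjamini-Hochberg adjustment over all genes tested. For genotype, all 12 libraries entered with genotype as the only term, in each class with at least 10 nuclei in 3 libraries per genotype, which left out intermediate progenitors. Each library is 1 animal. The method was tested on simulated data.

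The members, gates and lists were chosen with earlier results of these data known. Named genes were the members, Myt1l, the 3 genes most like each member over classes, and from the gliogenesis list the 3 higher and 3 lower of smallest adjusted p in astroglia against excitatory nuclei and any called between genotypes. Genes of the list that the text names in other comparisons (Apcdd1, Ezh2, Smad4, Gfap, Jak1, Bbx, Hes1 and Sox9) were chosen after their values were seen. Alternatives were DESeq2 1.42.0, RLE normalization, no filter, looser and stricter gates, doublets or all barcodes kept, sex as covariate, males only, a replicate block, other sets of libraries and each library left out. The rule of at least 10 nuclei per library and the scaling by library totals only were added after seeing the data.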

Additional observations from a re-analysis of the deposited data

Results flagged for a closer look

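In 120 sets of library values (60 pairs of member and class in each genotype), 8 held a library whose gap to its nearest neighbour took up more of the range than Dixon's 95% limit allows, and chance gives about 6 in as many. Het 2 accounted for 5 of them. In its 29 microglia Nfia stood at 1017 CPM (next 420) and Nfib at 1087 CPM (next 286), in its 103 MGE nuclei Zbtb20 at 1114 CPM (next 750), in its 233 oligodendrocyte lineage nuclei Nfix at 114 CPM (next 71.5), and in its 70 mural and fibroblast nuclei Nfia was low at 1417 CPM (next 1642). Het 4 was low for Nfix in the mural and fibroblast gate (59.1 CPM, next 152, 84 nuclei) and Het 1 low for Zbtb20 in CGE nuclei (542 CPM, next 869, 55 nuclei). WT 3 was high for Zbtb20 in striatal projection nuclei, at 2775 CPM (next 1902) from 25 nuclei. The value of Zbtb20 in deep-layer nuclei of Het 3 (865 CPM), which the genotype difference there rests on, did not pass this limit.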

How the results depend on the processing

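The count of 0 member and class pairs called between genotypes stayed 0 with DESeq2, RLE normalization, looser and stricter gates, doublets kept, all barcodes, sex as covariate, the replicate block, library totals only and at least 10 nuclei per library. It was 1 without the filter on low counts, 1 over males only, and 0 to 1 with each library left out (1 without Het 4). The call without the filter was Zbtb20 in deep-layer nuclei (0.97, adjusted p = 3.96e-24 with edgeR, against 0.199 with the filter). That fit called 137 of 31114 genes (0.440%), and its p does not measure the spread between libraries. Same-numbered libraries correlated at -0.301, 0.0310, 0.0674 and 0.231 over 8371 genes and 0 of 4 Het libraries correlated best with their own number, so the numbers were not taken to pair animals. The exact permutation test gave 0 pairs throughout, 0 to 0 with each library left out.

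Between classes, members called with each WT library left out ranged from 4 to 5 for astroglia against inhibitory and against oligodendrocyte lineage nuclei, and stayed 4 for astroglia against excitatory, excitatory against inhibitory and deep-layer against upper-layer nuclei, 3 for MGE against CGE and 2 for striatal against MGE nuclei. The loose gate gave 4 for the last, since more members passed the filter.

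In the gap between astroglia and excitatory nuclei, leaving out each library gave 0.32 to 0.69 for Nfia, 0.15 to 0.42 for Nfib, -0.13 to 0.21 for Nfic, 0.02 to 0.18 for Nfix and -0.52 to -0.22 for Zbtb20, and Nfic (-0.0051) reversed to 0.013 with a pseudocount of 10 CPM. Nfia passed the threshold without Het 4, and Zbtb20 without Het 4 or WT 8.

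Shares before thinning were 94.7% for Nfia, 84.5% for Nfib, 3.97% for Nfic, 26.7% for Nfix and 95.5% for Zbtb20 in WT astroglia, and 17.3% for Nfib, 6.54% for Nfic, 7.72% for Nfix and 56.1% for Zbtb20 in WT microglia.

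Small differences changed sign, none of them called. Nfix over all kept nuclei (-0.0084) was 0.0044 without the filter, 0.022 with all barcodes and with library totals only, 0.16 over males, 0.051 with the replicate block and -0.16 to 0.10 with 1 library left out, and Nfix in excitatory nuclei then ran from -0.092 to 0.10. In astroglia Nfia (-0.041) was 0.035 over males, and Nfic (0.072) was -0.013 with the loose gate, -0.14 with the strict gate, -0.017 with doublets kept and -0.034 with all barcodes. With 1 library left out the astroglial values ran from -0.097 to 0.0072 for Nfia, -0.077 to 0.12 for Nfib, -0.034 to 0.22 for Nfic, -0.072 to 0.16 for Nfix and -0.031 to 0.12 for Zbtb20. Nfic between excitatory and inhibitory nuclei was 0.032 without the filter and -0.26 to 0.062 with 1 library left out, and between deep-layer and upper-layer nuclei 0.099 with the loose gate and 0.18 over Het libraries. Zbtb20 between MGE and CGE nuclei was -0.20 with the loose gate and -0.040 to 0.24 with 1 library left out. The cause was not tested. Few nuclei limit the striatal and microglial classes, where 1 library each held under 10.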
